A study of Mus musculus with 12 samples.

Results

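Mitochondrial ribosomal proteins were followed in the left ventricle of mice with and without cardiomyocyte Gch1. The genes were chosen by name alone, as the protein-coding genes of the mouse annotation GENCODE M21 whose symbol is Mrpl (large subunit) or Mrps (small subunit) followed by a number. The annotation holds 78 such genes, 49 of the large and 29 of the small subunit. Of these, 76 were in the count table of 26921 genes, and all 76 (47 large, 29 small) were among the 11225 genes with enough counts to test. Mrpl33 and Mrpl53 were not analysed here. The 78 genes lie on 17 chromosomes, with 11 on chromosome 11 and 8 on chromosome 17, and none on the X or Y chromosome.

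RNA-seq libraries came from 16-week-old mice, with 6 libraries labelled WT and 6 labelled cmGch1 KO. Both groups were Gch1 flox/flox, so the WT mice also carried the floxed alleles. The cmGch1 KO mice carried in addition 1 copy of a Cre recombinase transgene that the α-MHC promoter switches on in cardiomyocytes, and the groups were littermates. No group with Cre and unfloxed Gch1 was sequenced, so that the effects of Cre and of the Gch1 deletion cannot be told apart in these libraries. Gch1 encodes GTP cyclohydrolase I, the enzyme that starts the synthesis of tetrahydrobiopterin. The comparison asks how hearts differ when this synthesis is deleted in cardiomyocytes. The paper reports that isolated cmGch1 KO cardiomyocytes kept part of the cofactor and that its level in whole hearts did not differ significantly.

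Mitochondria keep ribosomes of their own, which make the few proteins encoded by mitochondrial DNA, all of them subunits of the respiratory chain and ATP synthase. Their ribosomal RNAs are made inside the mitochondrion, while every ribosomal protein is encoded in the nucleus, made in the cytosol and imported. Many of these proteins have a bacterial counterpart and others are found only in mitochondria, and the heart, which depends on oxidative phosphorylation, is rich in them. The large subunit forms peptide bonds and holds the exit tunnel, and the small subunit binds and decodes the mRNA.

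Promoters of these genes are shown first, since motifs that members share are a feature their names do not fix. RefSeq promoter windows of 300 bases (250 before to 50 after the gene start, build GRCm38.p6) were found for 69 of the 78 genes, in 75 windows. Motifs were searched on both strands as exact letters for 3 factors known as regulators of nuclear genes for mitochondrial proteins. They were GCGCANGCG for NRF1, CCGGAAG for the ETS family that includes GABP, and AAGATGGC for YY1, and no matches of different motifs overlapped in a member window. The NRF1 letters were in 16 of the 75 member windows (21.3%), against 13.5% of 11127 windows of tested genes and 6.25% of all 32851 windows. The ETS letters were in 26 member windows (34.7%), against 17.6% and 8.86%. The YY1 letters were in 12 member windows (16.0%), against 4.60% of windows of tested genes and 2.75% of all windows. At least 1 of the motifs was in 60.4% of 48 large subunit windows and in 55.6% of 27 small subunit windows, against 31.1% of windows of tested genes. The windows printed here are those of Mrpl14, Mrps24 and Mrpl28, which had 3 of the most negative log2 fold changes, and of Mrps21, Mrpl34 and Mrps23, which had the highest levels per length in their subunits. Capitals mark the motif letters on either strand. These are chr17:45686099-45686398 (plus strand) for Mrpl14, chr3:95871465-95871764 (minus strand) for Mrps21, chr8:71464676-71464975 (plus strand) for Mrpl34, chr11:88204138-88204437 (plus strand) for Mrps23, chr11:5707652-5707951 (minus strand) for Mrps24 and chr17:26123253-26123552 (plus strand) for Mrpl28.
Mrpl14: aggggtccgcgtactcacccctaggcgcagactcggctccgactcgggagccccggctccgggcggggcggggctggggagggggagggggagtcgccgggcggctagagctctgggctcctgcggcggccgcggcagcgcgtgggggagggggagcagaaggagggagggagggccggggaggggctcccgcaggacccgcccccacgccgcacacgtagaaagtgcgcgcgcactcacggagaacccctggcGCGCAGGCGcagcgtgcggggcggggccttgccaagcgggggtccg
Mrps21: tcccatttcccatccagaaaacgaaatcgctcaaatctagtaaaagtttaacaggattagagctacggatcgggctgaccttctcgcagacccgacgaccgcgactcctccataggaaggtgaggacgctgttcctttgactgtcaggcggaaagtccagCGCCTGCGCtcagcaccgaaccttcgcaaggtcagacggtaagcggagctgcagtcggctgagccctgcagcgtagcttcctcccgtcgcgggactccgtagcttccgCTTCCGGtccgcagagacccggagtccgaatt
Mrpl34: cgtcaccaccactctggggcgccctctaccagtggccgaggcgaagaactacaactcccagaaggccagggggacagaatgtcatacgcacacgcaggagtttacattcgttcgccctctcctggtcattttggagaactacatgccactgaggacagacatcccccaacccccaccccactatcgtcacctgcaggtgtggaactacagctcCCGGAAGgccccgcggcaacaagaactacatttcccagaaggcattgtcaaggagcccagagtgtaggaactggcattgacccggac
Mrps23: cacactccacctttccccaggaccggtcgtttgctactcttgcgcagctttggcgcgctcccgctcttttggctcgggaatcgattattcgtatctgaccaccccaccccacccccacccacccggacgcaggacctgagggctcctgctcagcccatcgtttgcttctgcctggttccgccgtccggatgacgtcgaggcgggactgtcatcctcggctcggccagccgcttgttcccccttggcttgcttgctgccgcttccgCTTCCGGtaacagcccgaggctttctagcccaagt
Mrps24: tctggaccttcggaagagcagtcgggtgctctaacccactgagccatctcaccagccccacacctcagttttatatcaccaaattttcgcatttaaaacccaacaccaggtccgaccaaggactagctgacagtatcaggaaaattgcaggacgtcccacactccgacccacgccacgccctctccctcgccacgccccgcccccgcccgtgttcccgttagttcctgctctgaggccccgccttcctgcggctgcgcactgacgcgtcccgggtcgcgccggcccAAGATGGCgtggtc
Mrpl28: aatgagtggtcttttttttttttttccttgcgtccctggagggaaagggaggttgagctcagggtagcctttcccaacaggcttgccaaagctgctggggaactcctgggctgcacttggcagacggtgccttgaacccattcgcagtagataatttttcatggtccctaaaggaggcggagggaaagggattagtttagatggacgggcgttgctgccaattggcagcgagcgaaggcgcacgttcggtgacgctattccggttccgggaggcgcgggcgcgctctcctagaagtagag
The Mrpl14 window held the NRF1 letters, the Mrps21 window both the NRF1 and the ETS letters, the Mrpl34 and Mrps23 windows the ETS letters and the Mrps24 window the YY1 letters. None of the motifs was found in the Mrpl28 window, although it too belongs to a gene with one of the highest levels. A match says only that the letters are present.

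Depth ranged from 19921398 to 37917806 counts per library, and each of the 76 genes had between 299 and 9418 counts in each library, so that none was near the limit of detection. Values are given in cpm, the counts of a gene relative to the size of the library after scaling by the TMM method. A pair of libraries stood apart. Xist, the RNA that coats the inactive X, reached 86.7 and 99.1 cpm in cmGch1 KO replicates 2 and 3, and Y-linked genes had 0 counts there. Xist did not exceed 0.234 cpm in any of the other 10 libraries. The labels give no sex. Mitochondrially encoded genes took 14.9% and 16.1% of the counts in these 2 libraries and 18.3% to 22.9% in the others. Results are therefore also given without them. Gch1 was at 9.27 to 12.1 cpm in WT (median 10.8) and at 3.92 to 6.32 cpm in cmGch1 KO hearts (median 5.56). The genotypes did not overlap, and Gch1 was lower in all 6 cmGch1 KO libraries than in any WT library (log2 fold change -0.96, SE 0.11, adjusted p = 0.000688). By an exact two-sided permutation test its p was 0.00216, the lowest possible with 924 splits.

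None of the 76 mitochondrial ribosomal protein genes passed the test between genotypes. By edgeR's quasi-likelihood test with a false discovery rate of 0.05 over all tested genes, 0 were lower, against 0.445% of the 11225 tested genes, and 0 were higher, against 0.677%. DESeq2 also called 0 of the 76, against 1.38% of tested genes lower and 1.94% higher, and limma on the authors' normalized values 0, against 0.463% and 0.624%. Before adjustment, 2 members had a p under 0.05 and were lower (2.63%, against 4.51% of tested genes) and 0 were higher (against 7.01%). The WT and cmGch1 KO libraries overlapped for each of the 76 genes, while they were apart for 1.87% of tested genes. Mean levels were nonetheless lower in cmGch1 KO hearts for 67 of the 76 (88.2%, against 53.3% of tested genes), and the members' median on the log2 fold change scale was -0.11, against -0.0095 over all tested genes. With scaling by library size alone, 48 of the 76 had a lower mean (63.2%, against 30.1% of tested genes). The 67 are not 67 separate observations, because the genes varied together from library to library, as described further on. The absolute log2 fold change was larger than the spread within a genotype (SD of log2 cpm) for 4 of the 76 (5.26%), against 19.7% of tested genes. For 71 of the 76 (93.4%) the 95% interval of the fold change lay within 1.5-fold in either direction, against 88.9% of tested genes. Since this is bulk tissue, fewer cells of a type and less RNA per cell cannot be told apart.

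**Figure D1:**
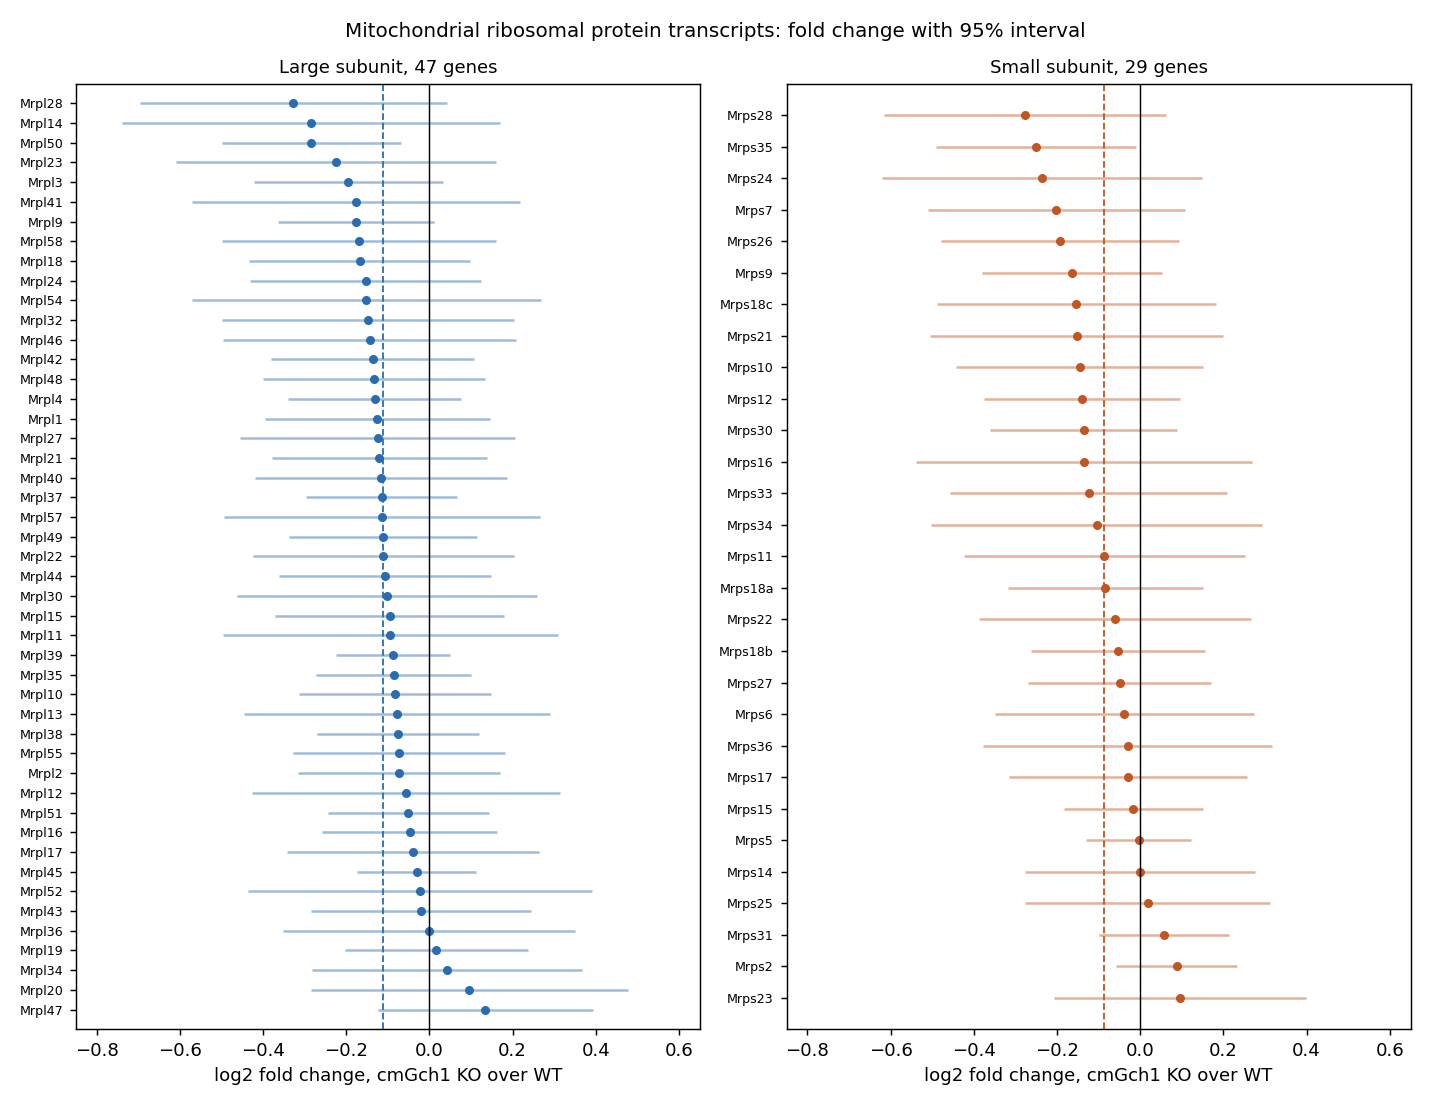
Log2 fold change (cmGch1 KO over WT, horizontal axis) of each of 47 large and 29 small subunit genes, ordered by value, with points for the estimate, bars for the 95% interval and a dashed line at the median of the subunit. Most points lie left of 0, with medians of -0.11 and -0.086, and only the intervals of Mrpl50 and Mrps35 leave out 0.

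In the large subunit, 43 of 47 genes had a lower mean with Gch1 deleted, and the log2 fold changes ran from -0.33 to 0.13 around a median of -0.11. Mrpl28, a protein with a bacterial counterpart (chr17:26123500-26126613), had the most negative value. It was at 86.1 to 140.2 cpm in WT (median 109) and at 73.6 to 132 cpm in cmGch1 KO hearts (median 80.2). The groups overlapped widely, since cmGch1 KO replicate 1 alone reached 132 cpm and the other 5 cmGch1 KO libraries stayed at or below 92.4 cpm. Its log2 fold change was -0.33 (SE 0.17, adjusted p = 0.515; exact permutation test p = 0.0952). Mrpl14, to which an assembly factor docks on the interface side of the subunit (chr17:45686322-45698495), was at 37.6 to 79.8 cpm in WT (median 54.8) and at 30.6 to 67.8 cpm in cmGch1 KO hearts (median 43.0). It had the widest spread within genotypes of all members, and its log2 fold change of -0.28 (SE 0.21, adjusted p = 0.704) was smaller than that spread. Opposite to Mrpl14 lies Tmem63b, whose exons cover 11.2% of its own.

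Mrpl50, a component found only in mitochondrial ribosomes (chr4:49512596-49521093), came nearest to the threshold. It was at 62.6 to 90.7 cpm in WT (median 71.8) and at 56.3 to 73.8 cpm in cmGch1 KO hearts (median 58.9). Of the 6 cmGch1 KO libraries, 5 lay below every WT library and only replicate 1, at 73.8 cpm, lay within the WT range. The log2 fold change was -0.28 (SE 0.10, 95% interval -0.50 to -0.069) with an unadjusted p of 0.0132 and an adjusted p of 0.247. By an exact permutation test in cpm, two-sided, p was 0.0303.

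Only 4 large subunit genes had a higher mean in cmGch1 KO hearts, and the 3 highest values are given here. Mrpl47, which sits near the exit of the peptide tunnel (chr3:32725397-32737605), was at 21.2 to 28.8 cpm in WT (median 24.6) and at 22.6 to 33.5 cpm in cmGch1 KO hearts (median 26.6). Its ranges overlapped for most libraries (log2 fold change 0.13, SE 0.12, adjusted p = 0.772), and exons of Ndufb5 and Actl6a on the other strand cover part of it, up to 13.9%. Mrpl20, with a bacterial counterpart (chr4:155802878-155809975), was at 22.1 to 38.9 cpm in WT (median 29.5) and at 21.1 to 44.6 cpm in cmGch1 KO hearts (median 31.8) (log2 fold change 0.10, SE 0.18). Mrpl34, among the smallest proteins of the subunit (chr8:71464959-71465747), was at 50.3 to 77.7 cpm in WT (median 62.6) and at 50.5 to 78.8 cpm in cmGch1 KO hearts (median 63.8), with medians close to each other (log2 fold change 0.043, 95% interval -0.28 to 0.37). Without the 2 libraries with Xist, Mrpl47 and Mrpl34 had negative values of -0.021 and -0.062.

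In the small subunit, 24 of 29 genes had a lower mean with Gch1 deleted, and the log2 fold changes ran from -0.28 to 0.096 around a median of -0.086. Mrps28, related to a bacterial small subunit protein (chr3:8802146-8923918), was at 28.7 to 45.9 cpm in WT (median 34.7) and at 21.7 to 39.3 cpm in cmGch1 KO hearts (median 28.3). The ranges overlapped over most of their length (log2 fold change -0.28, SE 0.16, adjusted p = 0.564; exact permutation test p = 0.154). Mrps35, a mitochondria-specific protein (chr6:147042764-147073991), was at 59.6 to 80.8 cpm in WT (median 67.5) and at 48.6 to 75.2 cpm in cmGch1 KO hearts (median 56.0). It was the second gene past an unadjusted threshold, with a log2 fold change of -0.25 (SE 0.11, 95% interval -0.49 to -0.0099), an unadjusted p of 0.0424 and an adjusted p of 0.406, while the exact permutation test in cpm gave p = 0.0693. Mrps24, with a bacterial counterpart (chr11:5703983-5715680), was at 49.1 to 93.1 cpm in WT (median 67.4) and at 45.7 to 83.0 cpm in cmGch1 KO hearts (median 56.7), and these ranges overlapped too (log2 fold change -0.24, SE 0.18). Exons of Urgcp on the same strand cover 15.4% of those of Mrps24.

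Mrps23, the most abundant small subunit transcript (chr11:88204388-88211507), had the highest fold change of the subunit. It was at 128 to 207 cpm in WT (median 168) and at 150.4 to 237 cpm in cmGch1 KO hearts (median 169). The medians were nearly equal and 1 cmGch1 KO library lay above the WT range (log2 fold change 0.10, SE 0.14, 95% interval -0.21 to 0.40). Without cmGch1 KO replicate 1 its log2 fold change was -0.00041. Mrps2, with a bacterial counterpart (chr2:28468066-28471178), was at 30.2 to 34.8 cpm in WT (median 32.2) and at 31.4 to 38.3 cpm in cmGch1 KO hearts (median 34.1). Mrps31, found only in mitochondria (chr8:22411361-22429665), was at 36.9 to 43.9 cpm in WT (median 39.1) and at 37.2 to 46.0 cpm in cmGch1 KO hearts (median 41.5). Both had narrow and overlapping ranges, with log2 fold changes of 0.088 (SE 0.068) and 0.057 (SE 0.073). The value of Mrps31 was -0.0095 without the 2 libraries with Xist and -0.0049 with a sex-linked covariate.

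A few members carry names that do not match their place. Mrps30 and Mrps18a are named for the small subunit but sit in the large subunit of the assembled ribosome. Mrps30 (chr13:118378381-118387252) was at 17.9 to 25.5 cpm in WT (median 21.3) and at 17.6 to 24.6 cpm in cmGch1 KO hearts (median 18.1), and Mrps18a (chr17:46110986-46128910) was at 52.4 to 69.1 cpm in WT (median 61.0) and at 50.7 to 72.4 cpm in cmGch1 KO hearts (median 55.2). Both had lower means in cmGch1 KO hearts with overlapping libraries (log2 fold changes -0.14, SE 0.10, and -0.084, SE 0.11). Mrps36 (chr13:100735955-100744659) is now known as a component of the α-ketoglutarate dehydrogenase complex of the citric acid cycle rather than of the ribosome. It was at 42.9 to 73.6 cpm in WT (median 55.0) and at 37.9 to 75.1 cpm in cmGch1 KO hearts (median 53.7), with close medians (log2 fold change -0.030, 95% interval -0.38 to 0.32). Mrps36 also has 4 pseudogene copies in the annotation that match it at 95% identity or more over at least 200 bases, and its counts are uncertain to that extent.

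Mrps11 and Mrpl46, a small and a large subunit gene, lie head to head on chromosome 7 and overlap at their starts (chr7:78783119-78792989 and chr7:78775236-78783531). The overlap takes 7.97% of the exons of Mrps11 and 12.2% of those of Mrpl46. Mrps11 was at 20.2 to 29.3 cpm in WT (median 24.4) and at 14.96 to 32.3 cpm in cmGch1 KO hearts (median 22.5). Mrpl46 was at 25.8 to 44.9 cpm in WT (median 34.7) and at 23.8 to 40.8 cpm in cmGch1 KO hearts (median 30.4). The pair was named after its values were seen, and neither gene passed the test (log2 fold changes -0.086, SE 0.16, and -0.14, SE 0.16).

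When each gene counted equally, the difference between large and small subunit genes overlapped between genotypes. The mean log2 level of the 47 large subunit genes minus that of the 29 small subunit genes, centred on the mean of all libraries, lay between -0.030 and 0.045 in WT libraries and between -0.033 and 0.024 in cmGch1 KO libraries. These ranges overlapped, and the means differed by -0.015. With Mrps30 and Mrps18a counted in the large subunit, the ranges overlapped too. They were -0.023 to 0.046 in WT and -0.026 to 0.0056 in cmGch1 KO libraries. Genes with a bacterial counterpart had a median log2 fold change of -0.10 (39 of 45 lower) and mitochondria-specific genes one of -0.11 (27 of 30 lower). Within the large subunit, all 18 mitochondria-specific genes had a lower mean and 25 of 29 with a bacterial counterpart did. In the small subunit it was 9 of 12 and 14 of 16. A small subunit gene in neither class is left out of these counts. Subunits here follow the symbols, so Mrps30 and Mrps18a are among the 12.

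Summed levels, in which abundant transcripts weigh most, gave a slightly different picture. Large subunit transcripts summed to between 2418 and 3399 cpm in WT and between 2283 and 3363 cpm in cmGch1 KO libraries, and small subunit transcripts to between 1151 and 1635 cpm and between 1130.2 and 1667 cpm. WT hearts had a ratio of the sums of 2.08 ± 0.028 (SD, n = 6), and the ratio was 2.03 ± 0.017 (SD, n = 6) in cmGch1 KO hearts. Its lowest WT value and highest cmGch1 KO value were both 2.05, so that the groups just touched. With Mrps30 and Mrps18a counted in the large subunit, the WT ratios ran from 2.25 to 2.33 and those of cmGch1 KO hearts from 2.203 to 2.24, which did not overlap. The same assignment gave overlapping ranges when each gene counted equally, as stated above. Mrps36 was kept among the small subunit genes in these sums. Without Mrps23, the small subunit gene with the highest level, the WT values ran from 2.33 to 2.44 and the cmGch1 KO values from 2.32 to 2.397, overlapping again. Without the 2 libraries with Xist, the ratio by symbol in cmGch1 KO hearts was between 2.003 and 2.04. Without Mrps23 the mean ratios were 2.37 in WT and 2.36 in cmGch1 KO hearts, and no test was made of the difference.

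**Figure D2:**
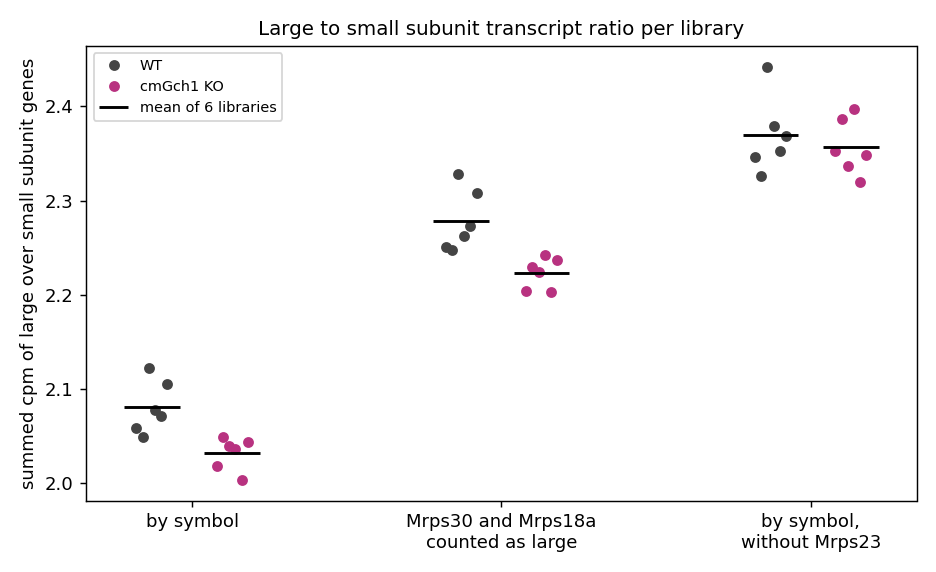
Summed cpm of large over small subunit genes (vertical axis, not starting at 0) in each of 6 WT and 6 cmGch1 KO libraries (points), with the mean of each group (line), for 3 ways of assigning genes. The groups touch at 2.05 by symbol, are apart with Mrps30 and Mrps18a counted as large, and overlap without Mrps23.

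Variation between libraries of the same genotype was the main pattern in these genes. Averaged over the 76 genes, log2 levels centred on the 12 libraries were 0.28, 0.17 and 0.32 in WT replicates 1, 3 and 4 and -0.17, -0.13 and -0.17 in WT replicates 2, 5 and 6. In cmGch1 KO hearts the average was 0.32 in replicate 1, 0.082 and -0.0075 in replicates 2 and 3, and -0.26, -0.23 and -0.20 in replicates 4, 5 and 6. The highest library of all was thus a cmGch1 KO library, and the difference between the genotype means (-0.098) was smaller than the SD within WT (0.23) and within cmGch1 KO libraries (0.23). Large and small subunit genes moved together, with averages of 0.32 and 0.32 in cmGch1 KO replicate 1 and -0.27 and -0.24 in cmGch1 KO replicate 4. Of the 76 genes, 69 were highest in WT replicate 1, WT replicate 4 or cmGch1 KO replicate 1, and 58 were lowest in cmGch1 KO replicates 4, 5 or 6.

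**Figure D3:**
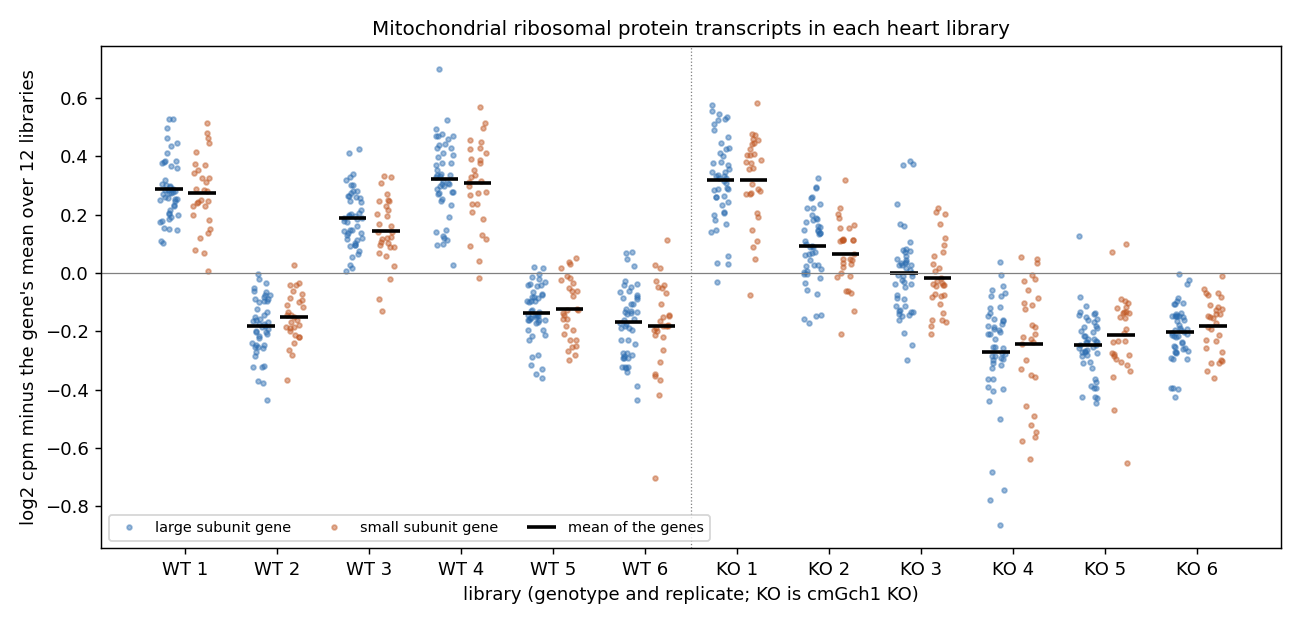
Log2 cpm of each large (blue) and small (orange) subunit gene, minus its own mean over the 12 libraries (vertical axis), in 6 WT and 6 cmGch1 KO libraries (horizontal axis), with black lines for the mean of the genes. WT replicates 1, 3 and 4 and cmGch1 KO replicate 1 lie above 0 in both subunits, with means from 0.14 to 0.32.

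After removing the genotype means, the median Pearson r over the 2850 pairs of members was 0.85, against -0.0015 over all pairs of tested genes. The medians were 0.87 for pairs within the large subunit, 0.81 within the small subunit and 0.85 between subunits. The points of each r are the same 12 libraries, and without the 2 with Xist the median over all member pairs was 0.89. Members differed in how far they followed the rest, and the following were named after their values were seen. Mrps2 had a mean r of 0.093 with the other members and Mrps5, with a bacterial counterpart, one of 0.45, while Mrpl12, a large subunit protein also known to bind the mitochondrial RNA polymerase, had the highest, 0.88. Mrps5 was also the steadiest member, between 42.0 and 48.0 cpm over all 12 libraries. Over the 76 genes, the whole range across libraries ran from 0.19 to 1.38 on the log2 scale, and it was smaller for genes with long transcripts (Spearman's rho of -0.33 across genes, which share the same libraries and depth).

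The shared movement went along with a measure of each library that used no member. Taking the tested genes that are not members, the centred log2 level of the 25% with the shortest exonic length (up to 2871 bases) minus that of the 25% with the longest (from 7062 bases) gave 0.41 in cmGch1 KO replicate 1, 0.34 in WT replicate 1 and 0.25 in WT replicate 4. These were the 3 libraries with the highest average of the members. The measure was -0.24 or lower in WT replicates 2 and 6 and in cmGch1 KO replicate 5, where the members averaged between -0.17 and -0.23. Of the 76 members, 43 were as short as the first of these sets and 6 as long as the other. Cytosolic ribosomal protein genes moved the same way, from 0.45 in cmGch1 KO replicate 1 and 0.46 in WT replicate 4 down to -0.53 in cmGch1 KO replicate 4. That library had the lowest average of the members too (-0.26), but its short minus long measure, -0.14, was the highest among the 6 libraries where the measure was negative. The measure averaged 0.0044 in WT and 0.0043 in cmGch1 KO hearts. What sets it was not tested.

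**Figure D4:**
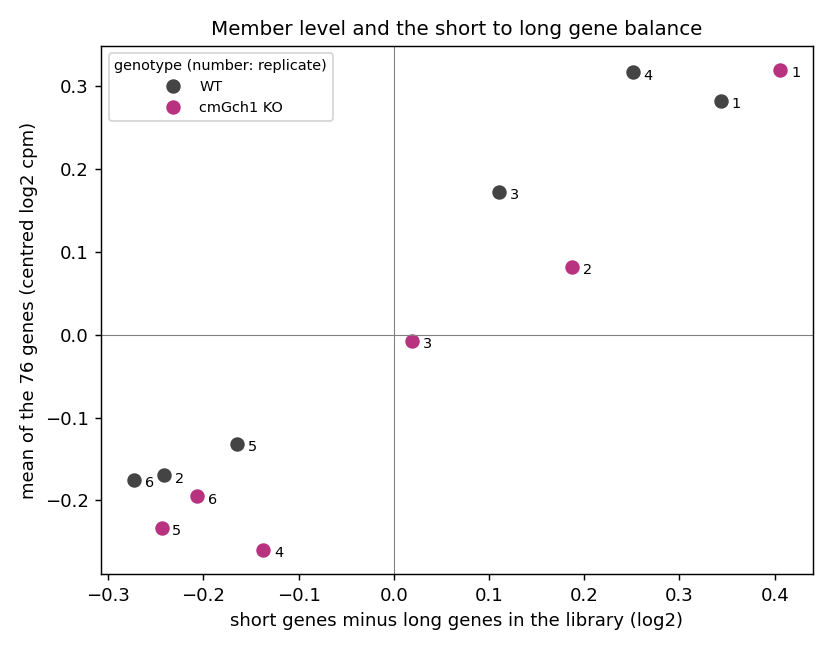
Mean centred log2 cpm of the 76 genes (vertical axis) against the short minus long gene measure of the same library (horizontal axis, log2), 1 point for each of 6 WT and 6 cmGch1 KO libraries, numbered by replicate. The members averaged 0.28 to 0.32 in the 3 libraries where the measure was highest and were below 0 in the 6 libraries where it was negative.

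When the fit held a covariate for variation between libraries, some members passed the test, each of them lower in cmGch1 KO hearts. With 1 surrogate variable estimated from all tested genes, 8 of 76 members (10.5%) were lower, against 2.95% of tested genes, and 0 were higher, against 2.72%. With the short minus long measure as a covariate, a fit added after the data were seen, 8 members were lower, against 3.06% of tested genes, and 0 were higher, against 2.78%. The 2 covariates were nearly alike and had the same sign in each library. The surrogate variable and the measure were 0.50 and 0.41 in cmGch1 KO replicate 1 and -0.37 and -0.27 in WT replicate 6. The members were among the genes that gave the surrogate variable. The 2 fits are therefore not separate evidence, and they shared 7 members. These were Mrpl3, Mrpl9, Mrpl28 and Mrpl50 of the large and Mrps7, Mrps28 and Mrps35 of the small subunit, with Mrps24 called in the first and Mrps9 in the second fit alone. With the surrogate variable, the log2 fold change was -0.26 (SE 0.045, adjusted p = 0.00675) for Mrps35, -0.33 (SE 0.061, adjusted p = 0.00952) for Mrpl28, -0.20 (SE 0.043, adjusted p = 0.0170) for Mrps7 and -0.28 (SE 0.061, adjusted p = 0.0185) for Mrpl50. Mrps28 had -0.27 (SE 0.066, adjusted p = 0.0309), Mrpl3 -0.20 (SE 0.050, adjusted p = 0.0349), Mrpl9 -0.17 (SE 0.047, adjusted p = 0.0460) and Mrps24 -0.23 (SE 0.060, adjusted p = 0.0464). With the short minus long measure, Mrps9 had -0.16 (SE 0.045, adjusted p = 0.0488). The fold changes were close to those without a covariate and the standard errors smaller, since for Mrps35 the SE was 0.045 in place of 0.11. At an unadjusted p under 0.05, 26 members were lower with the surrogate variable (34.2%, against 11.1% of tested genes) and 25 with the short minus long measure (32.9%, against 11.1%), and 0 were higher in either fit, against 10.3% of tested genes in each. The medians barely moved, at -0.11 for the large and -0.098 for the small subunit with the surrogate variable.

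Among the genes named by these fits, Mrpl3, which lies by the peptidyl transferase centre in bacterial ribosomes, was at 99.5 to 131 cpm in WT (median 114) and at 89.7 to 133 cpm in cmGch1 KO hearts (median 95.3). Mrpl9 was at 80.9 to 107 cpm in WT (median 93.2) and at 74.3 to 97.7 cpm in cmGch1 KO hearts (median 81.2). In the small subunit, Mrps7, a protein of the head of the subunit, was at 66.0 to 99.4 cpm in WT (median 81.9) and at 61.0 to 97.2 cpm in cmGch1 KO hearts (median 66.8). Mrps9, also of the head, was at 76.9 to 101 cpm in WT (median 86.7) and at 65.6 to 100.1 cpm in cmGch1 KO hearts (median 78.2). For all 4 the median was lower in cmGch1 KO hearts while the libraries overlapped, and without a covariate their log2 fold changes were -0.19, -0.18, -0.20 and -0.16, with adjusted p from 0.475 to 0.685.

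With a replicate block, 6 of 76 members (7.89%) were lower at an unadjusted p under 0.05, against 7.5% of tested genes, and 0 passed the adjusted threshold (lower against 0.677% of tested genes). Single libraries weighed on the unadjusted results. Without cmGch1 KO replicate 1, where the members were highest, 15 of 76 were lower at an unadjusted p under 0.05 (19.7%, against 7.57% of tested genes), 0 passed the adjusted threshold (lower against 0.859% of tested genes), and the medians were -0.20 in both subunits. Without the 2 libraries with Xist, 0 members passed (lower against 0.162% of tested genes), 1 was lower at an unadjusted p (against 2.79% of tested genes), 72 of 76 had a lower mean (94.7%, against 51.3%) and the medians were -0.15 for the large and -0.099 for the small subunit.

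Levels per length covered a wide range. In cpm per kilobase of exons, Mrps23 at 108 ± 21.9 (SD, n = 6), Mrpl34 at 104 ± 23.0 (SD, n = 6), Mrps21, a small subunit protein with a bacterial counterpart, at 96.0 ± 19.6 (SD, n = 6) and Mrpl28 at 80.7 ± 19.3 (SD, n = 6) were the 2 highest of each subunit in WT hearts. Mrps23, Mrpl34 and Mrps21 did not differ beyond their spread. The lowest were Mrps10, with a bacterial counterpart, at 2.34 ± 0.420 (SD, n = 6), Mrps30 at 3.23 ± 0.401 (SD, n = 6), Mrpl17 at 4.91 ± 0.987 (SD, n = 6) and Mrpl32, which the mitochondrial m-AAA protease matures before assembly, at 5.04 ± 1.07 (SD, n = 6). Mrps10 and Mrps30 differed by more than their SDs, and Mrpl17 and Mrpl32 did not. In cmGch1 KO hearts, the same genes were at 115 ± 20.9 (SD, n = 6) for Mrps23, 107 ± 19.8 (SD, n = 6) for Mrpl34, 2.12 ± 0.423 (SD, n = 6) for Mrps10 and 4.78 ± 0.887 (SD, n = 6) for Mrpl17, each within the SDs of WT. Most of these proteins occur as a single copy in each ribosome, and their transcript levels ran from 2.34 to 108 cpm per kilobase. Median levels were 23.3 for the large and 15.3 for the small subunit in WT hearts, and 22.0 and 13.7 in cmGch1 KO hearts. With the longest transcript in place of all exons the WT medians were 31.1 and 23.4, with Mrps21 highest and Mrps10 lowest.

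**Figure D5:**
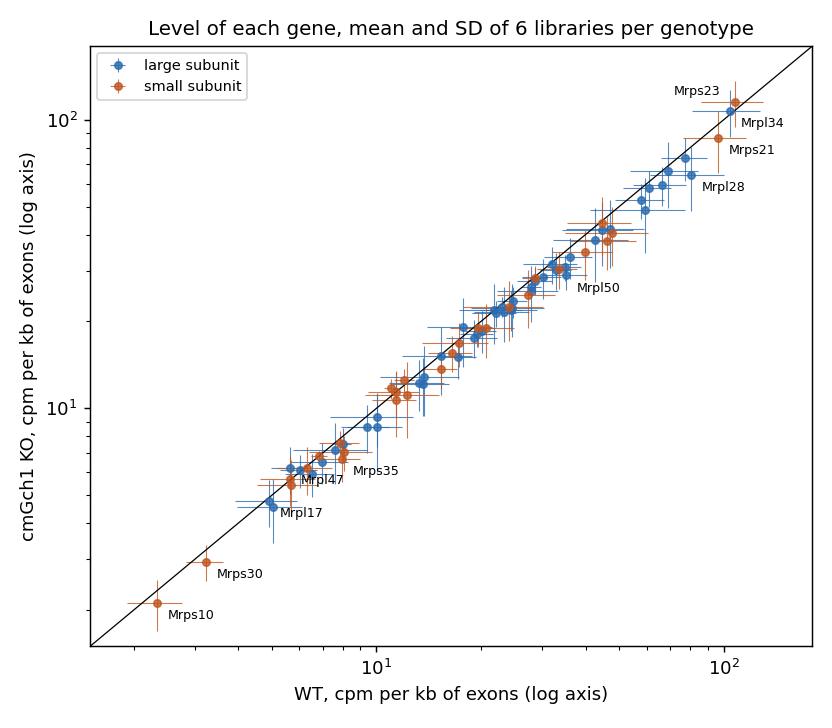
Level of each large (blue) and small (orange) subunit gene in cmGch1 KO hearts (vertical axis) against WT hearts (horizontal axis), in cpm per kilobase of exons on log axes, with points for the mean and bars for the SD of 6 libraries per genotype. The line marks equal levels, and the bars of Mrps23, Mrpl34 and Mrps10, like those of most genes, reach it.

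Of the genes that work with these proteins, few moved past a test. The 5 mitoribosomal proteins with other names (Dap3, Ptcd3, Chchd1, Aurkaip1 and Gadd45gip1) all had lower means, with a median log2 fold change of -0.16, and 0 were called. Dap3, a GTP-binding protein of the small subunit, was at 91.6 to 116 cpm in WT (median 101) and at 87.4 to 99.5 cpm in cmGch1 KO hearts (median 92.8) (log2 fold change -0.12, adjusted p = 0.526). Of 28 tested genes for assembly and rRNA maturation, 22 had lower means (median -0.079), 0 were called and 1, Nsun4, a methyltransferase of the small subunit rRNA, was lower at an unadjusted p (log2 fold change -0.17, p = 0.0328 by edgeR and 0.0260 by an exact permutation test). Of 15 translation factors, 13 had lower means (median -0.091) and 0 were called. Gfm2, which recycles ribosomes, was at 72.5 to 85.2 cpm in WT (median 75.6) and at 67.0 to 74.0 cpm in cmGch1 KO hearts (median 68.8). Its libraries nearly separated (log2 fold change -0.14, SE 0.058, adjusted p = 0.331; exact permutation test p = 0.00649). Of 14 tested genes for mitochondrial transcription and RNA processing, 9 had lower means (median -0.061, or 0.016 with scaling by library size alone) and 0 were called. At an unadjusted p, Tfb2m, a transcription factor of mitochondrial DNA, was lower (log2 fold change -0.16, p = 0.0310 by edgeR and 0.0260 by an exact permutation test) and Mtpap, the mitochondrial poly(A) polymerase, higher (log2 fold change 0.15, p = 0.0455 by edgeR and 0.0216 by an exact permutation test). Tfam, which packages mitochondrial DNA, was at 39.9 to 51.9 cpm in WT (median 46.8) and at 40.1 to 51.0 cpm in cmGch1 KO hearts (median 47.9), with overlapping ranges (log2 fold change -0.0070).

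The ribosomal RNAs of the mitochondrial ribosome had lower means than in WT, without passing the test. How rRNA was treated in library preparation is not stated in the paper's methods, and its part in these counts was not tested. The small subunit rRNA mt-Rnr1 was at 3034 to 4405 cpm in WT (median 3563) and at 2383 to 3797 cpm in cmGch1 KO hearts (median 2906) (log2 fold change -0.28, unadjusted p = 0.0325 and adjusted p = 0.360 by edgeR). The large subunit rRNA mt-Rnr2 was at 9078 to 13784 cpm in WT (median 12063) and at 6015 to 10621 cpm in cmGch1 KO hearts (median 8978) (log2 fold change -0.45, unadjusted p = 0.00982 and adjusted p = 0.215 by edgeR). Both overlapped between genotypes. Without the 2 libraries with Xist, which also had the lowest mitochondrial share, the values were -0.20 and -0.28. The 13 mitochondrial mRNAs, the products of whose translation these ribosomes make, had a median of -0.11, with 9 lower and 0 called.

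Regulators gave 1 call. Of 9 listed (Nrf1, Gabpa, Gabpb1, Yy1, Esrra, Ppargc1a, Ppargc1b, Pprc1 and Myc), Myc, a transcription factor that acts on ribosome genes among many others, was at 2.08 to 3.47 cpm in WT (median 2.38) and at 3.56 to 7.25 cpm in cmGch1 KO hearts (median 4.49). Every cmGch1 KO library was above every WT library, and Myc rose by a log2 fold change of 0.90 (SE 0.19, adjusted p = 0.0399), though the call was lost in 9 of 23 alternatives, with an adjusted p of up to 0.106. These were the fits without both libraries with Xist (adjusted p = 0.061 by edgeR) and those that left out WT replicate 2, 3, 5 or 6 or cmGch1 KO replicate 1, 3, 5 or 6. In the deposited normalized values the difference of Myc was 0.47. The median of Myc in WT was under the 3 cpm of the filter. It was tested only because the cmGch1 KO libraries, where it was higher, were over that limit. The call is therefore not independent of the filter, though the fit with no filter was not among those that lost it. With cpm over 3 asked of every library, Myc was not tested. The factors whose motifs were searched did not pass the test, with Nrf1 at 0.052 and Gabpa at -0.028 on the log2 scale. Ppargc1a, a coactivator of mitochondrial genes, was at 64.8 to 128 cpm in WT (median 94.8) and at 62.5 to 105 cpm in cmGch1 KO hearts (median 76.2) (log2 fold change -0.26, adjusted p = 0.606). Cytosolic ribosomal proteins were listed by the symbols Rpl or Rps and a number, which takes in kinases named Rps6k. Of 90 tested, 70 had lower means (median -0.058) and 1 was called lower, and that gene, Rps6ka2, is a kinase (at 78.3 to 92.5 cpm in WT (median 87.6) and at 53.0 to 67.0 cpm in cmGch1 KO hearts (median 61.8)). Without the kinases, 63 of 81 had lower means (median -0.059) and 0 were called. With scaling by library size alone their median was 0.017.

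Markers of the cell types in the tissue were examined beside these results. Of 8 cardiomyocyte markers, 7 had lower means (median log2 fold change -0.17), 0 were called, and the list summed to between 69665 and 75255 cpm in WT and between 63469 and 66277 cpm in cmGch1 KO libraries, which do not overlap. All 7 macrophage markers had higher means (median 0.30), with 0 called and all 7 higher at an unadjusted p under 0.05 (against 7.01% of tested genes), and summed to between 156 and 204 cpm in WT and between 200.1 and 249.7 cpm in cmGch1 KO libraries. All 7 fibroblast markers had higher means (median 0.12), with 0 called, and their sums overlapped, from 796 to 1063 cpm and from 898 to 1109 cpm. The 6 endothelial markers had a median of 0.040 and the 5 smooth muscle and pericyte markers one of -0.064 (0.010 with scaling by library size alone), with 1 called, Acta2, a smooth muscle actin, higher (log2 fold change 0.66, adjusted p = 0.00672, and 0.0506 without the 2 libraries with Xist). Atrial genes summed to between 74.3 and 545 cpm in WT and between 246 and 742 cpm in cmGch1 KO libraries, with a median log2 fold change of 0.14. Nppa, a natriuretic peptide, had the highest mean of them in both genotypes and was called higher (log2 fold change 1.53, adjusted p = 0.0240), with the call lost in 8 of 24 alternatives at an adjusted p of up to 0.176. Among the 8 were the fits without WT replicate 2, 3 or 5 and those without cmGch1 KO replicate 2, 3 or 4. The other atrial genes, Myl7 (0.11), Myl4 (0.17) and Sln (-0.36 on the log2 fold change scale), did not pass the test. The 5 red blood cell markers all had lower means (median -0.39), 0 called, with sums of 391 to 1147 cpm and 429 to 921 cpm. Lymphocyte and adipocyte markers were too low to test, at no more than 3.66 and 2.97 cpm in sum, and only 1 of 4 nerve and glia markers was tested (log2 fold change 0.055). No listed marker was at 0 in every library. The part of the cell makeup in the values of the mitochondrial ribosomal protein genes was not tested.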

How the data were processed

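Left ventricular RNA-seq libraries of 6 WT and 6 cmGch1 KO mice were used. The authors deposited raw counts per Ensembl gene and a second table of normalized values on a log2-like scale. According to the study's methods and the submitters' processing notes, the authors aligned reads of stranded paired-end libraries to GRCm38 with HISAT2 and used SAMtools; the strand setting of the counting is not given in the sources used here. Symbols, coordinates and lengths were taken from GENCODE M21, in which 26582 of 26921 identifiers were found.

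Counts were tested with edgeR 4.0.16 (quasi-likelihood, TMM, cpm over 3 in at least 6 libraries, genotype only) in R 4.3.3, with Benjamini-Hochberg adjustment over 11225 genes and a threshold of 0.05. Log2 cpm used a prior count of 2. The exact permutation test was two-sided over 924 splits of TMM-scaled cpm, and its smallest p is 0.00216. Intervals are 95% from the edgeR standard errors. A count of 0 would allow up to 3 counts, or 0.151 cpm in the shallowest library, for counting error only. The scripts were tested on simulated data with known changes. Nothing in the labels says how animals were sampled beyond 1 library each, so p-values measure the spread between these libraries.

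Alternatives were DESeq2 1.42.0 (size factors and Wald test), library size alone, no filter, cpm over 3 in every library, a replicate block, sex-linked expression or 1 surrogate variable (sva 3.50.0) as covariate, mitochondrially encoded genes left out, limma 3.58.1 on the deposited log2 values, each library left out, and both Xist libraries left out. The short minus long covariate was added after the data were seen. Members with the 3 largest rises and falls and the 2 highest and lowest levels per length in each subunit were named, with Mrps30, Mrps18a, Mrps36, Gch1 and companion genes past the threshold. The members, lists and rules were chosen with earlier results of these data known. Of the 76 members, 19 have a pseudogene copy of at least 95% identity over 200 bases and 24 share over 5% of their exons with another gene, and reads may be split there.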

Additional observations from a re-analysis of the deposited data

Results flagged for a closer look

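Among 82 groups of 6 libraries examined, 5 had a single library far from the others, and chance alone would mark about 1 group in 20. That rate is for separate groups, so it cannot say whether 5 is many or few here. All 5 were cmGch1 KO groups in which replicate 1 was the highest. Since the genes moved together across libraries, the 5 are not separate observations. In that library Mrpl3 was at 133 cpm, with the next cmGch1 KO library at 97.1 cpm. Mrpl28 was at 132 cpm there and at most at 92.4 cpm in the other cmGch1 KO libraries. For Mrpl50 the value was 73.8 cpm and the next 61.8 cpm. Mrpl32 stood at 33.8 cpm against 22.6 cpm, and Mrps10 at 23.9 cpm against 16.9 cpm. The short minus long measure was also highest of all libraries in cmGch1 KO replicate 1, at 0.41, and its part in these values was not tested.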

How the results depend on the processing

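Over 24 alternative settings, the count of members called higher stayed at 0, and that of members called lower stayed at 0 except for 8 with 1 surrogate variable and 8 with the short minus long covariate, in which the standard errors were smaller. The median log2 fold change stayed negative in both subunits in each alternative fit. It ranged from -0.20 to -0.056 (large) and from -0.20 to -0.028 (small) when each library was left out in turn, and was nearest to 0, at -0.035 and -0.0098, with scaling by library size alone, where the median of all tested genes was 0.065. Gch1 kept its call in each, between -1.01 and -0.88 when each library was left out. Scaling by library size alone turned Mrpl17 to 0.037 and Mrps36 to 0.046. The sex-linked covariate turned Mrpl34 to -0.056, Mrpl47 to -0.015 and Mrps31 to -0.0049, and leaving out both Xist libraries turned them to -0.062, -0.021 and -0.0095. Leaving out each library in turn, values of both signs were seen for Mrpl17 (-0.12 to 0.052), Mrps36 (-0.13 to 0.061), Mrpl34 (-0.020 to 0.11), Mrpl20 (-0.026 to 0.19) and Mrps23 (-0.00041 to 0.16). Using the longest transcript, the median WT level was 31.1 (large) and 23.4 (small) cpm per kilobase. The cause of these changes was not tested.

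Over all tested genes, 126 were called (50 lower and 76 higher). The count was 636 with the surrogate variable, 655 with the short minus long covariate, 373 by DESeq2's Wald test, 62 with the sex-linked covariate, 34 without both Xist libraries, 207 without cmGch1 KO replicate 1, 72 without WT replicate 3, 73 without WT replicate 5, 84 without WT replicate 4 or cmGch1 KO replicate 2, and 78 without cmGch1 KO replicate 3. Scaling by library size alone gave 36 lower and 116 higher. With a replicate block, 188 genes and 0 members were called, 6 members were lower at an unadjusted p (7.89%, against 7.5% of tested genes), and the medians were -0.11 (large) and -0.091 (small). The labels do not say that a replicate number marks a shared litter or day. Same-numbered libraries had residual correlations of 0.68, 0.40 and 0.51 for numbers 1, 5 and 6, each of which correlated best with its own number, and from -0.13 to -0.078 for the other 3, so the numbers were not taken as pairs. With 6 libraries a genotype, the 95% intervals of 5 members reach beyond 1.5-fold, so that changes of that size cannot be set aside for them. The intervals are for single genes and are not adjusted for the number of members.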
